A study of Mus musculus with 8 samples.

Results

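The 8 genes described here carry the import of cystine and the synthesis, recycling, use and export of glutathione in J774.1 cells, a macrophage-like mouse cell line of the BALB/c strain. They were chosen by name, with earlier results of these data known. Every probe whose RefSeq accession maps to Slc7a11, Gclc, Gclm, Gss, Gsr, Gpx1, Gpx4 or Abcc1 was taken. This gave 10 probes for 8 of the 21528 genes tested. Glutathione is a small thiol peptide that cells build from glutamate, cysteine and glycine and use to reduce peroxides and to tag electrophiles for export. Cysteine is usually the scarce part; cells take it up as its dimer cystine through system xc-, an exchanger that releases glutamate. Several of these genes are known targets of NRF2, a transcription factor held down by KEAP1 until reactive compounds modify KEAP1, and Slc7a11 is also known as a target of ATF4, a factor of the amino acid response that mTOR complex activity sustains.

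RNA was measured on 8 one-colour arrays, 2 biological replicates in each of 4 groups, according to the authors' design text. IR cells received isorhamnetin at 10 µM for 6 h and TAM cells tamarixetin at 10 µM for 6 h. Torin cells received Torin1, an inhibitor of the kinase mTOR, at 1 µM for 6 h. Ctrl cells carry the control label, and the sources used here do not say whether they received the solvent. The flavonols isorhamnetin and tamarixetin are isomers, methyl ethers of quercetin that differ in which of a pair of neighbouring hydroxyls of its B ring carries the methyl group. All cells are of 1 line with no genetic change named in the labels.

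Values are log2 signals minus that of the 75th percentile of their own array, so 0 is the level of that percentile and 1 unit is a doubling in signal. All 10 probes were well above background on all 8 arrays, with 0 saturated, and each was printed as 1 spot per array. Replicate arrays correlated at r of 0.992 to 0.997, the 75th percentile of the signal lay between 318 and 403 units, and between 41.5% and 52.1% of probes were well above background. Of 8 macrophage markers, 7 were well above background on all arrays, among them Csf1r and Adgre1, and Mertk was so on none. The T cell markers Cd3e and Cd4 were well above background on all arrays and Cd3g and Cd8a on none, while 0 of 3 B cell, 0 of 4 fibroblast and 0 of 4 epithelial markers were so on all arrays. All arrays lay on 1 slide, with IR and Ctrl in row 1 and TAM and Torin in row 2. IR against control and tamarixetin against Torin1 are therefore differences within a row, while in the other comparisons the row and the compound cannot be told apart, and each group has its own pair of columns in its row. The number of arrays limits the precision, and each p-value sets a difference against the spread between these arrays. In bulk RNA less RNA per cell and fewer cells of a kind cannot be told apart.

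The bases upstream of the start of Slc7a11 and Gclm are shown because these were the members with the largest differences after isorhamnetin. They are RefSeq's, of build GRCm38.p6, 5′ to 3′ on the strand of the gene, from chr3:50443614-50443863 (minus strand) for Slc7a11 and chr3:122245307-122245556 (plus strand) for Gclm. Capitals mark matches, on either strand, to TGACNNNGC, the core of the antioxidant response element that NRF2 binds, or to TGATGNAA, the composite element bound by C/EBP and ATF4.
Slc7a11: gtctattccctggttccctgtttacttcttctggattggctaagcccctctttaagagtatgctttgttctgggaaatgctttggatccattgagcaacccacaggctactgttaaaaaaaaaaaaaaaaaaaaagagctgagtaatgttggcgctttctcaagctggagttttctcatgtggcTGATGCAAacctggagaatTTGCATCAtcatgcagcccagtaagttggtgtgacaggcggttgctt
Gclm: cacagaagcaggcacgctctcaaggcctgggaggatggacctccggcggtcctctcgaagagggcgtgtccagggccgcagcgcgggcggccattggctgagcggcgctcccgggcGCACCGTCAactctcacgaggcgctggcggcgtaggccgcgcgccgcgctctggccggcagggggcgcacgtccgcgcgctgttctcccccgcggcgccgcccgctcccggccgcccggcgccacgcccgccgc
The Slc7a11 stretch held the C/EBP-ATF4 letters at 2 places, 66 and 47 bases before the start, and the antioxidant letters at none. The Gclm stretch held the antioxidant letters at 1 place, 134 bases before the start, and the other motif at none. In windows from 250 bases before to 50 bases after the start, TGACNNNGC was present in 12.4% and TGATGNAA in 3.97% of 32851 promoters of the table. Of the 8 genes, 5 were matched in that table with 8 promoters in all. The Gss, Gpx1 and Gpx4 windows held neither motif, and Gclc, Gsr and Abcc1 were not matched. The motifs overlapped each other at none of these places, and a match is a description of letters and not of binding.

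With isorhamnetin the genes for cystine import, for both subunits of the first enzyme of glutathione synthesis, for glutathione recycling and for export rose. Of the 8 genes, 5 rose against control and 0 fell in limma, beside 0.418% of all 21528 genes that were called higher. The median of the 8 was 0.52 on the log2 scale, and that of all genes was -0.00. The IR and Ctrl arrays did not overlap for 6 of the 8 genes, beside 49.7% of all genes. The Slc7a11 and Gclm differences had the smallest and the second smallest p of all genes tested. As the members were chosen with earlier results of these data known, these shares and ranks are description and not independent support.

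Slc7a11, the exchanger subunit of system xc-, was at 1.38 and 1.34 on the IR arrays, -0.33 and -0.33 on TAM, -0.19 and -0.24 on Torin and -0.29 and -0.20 on Ctrl. The IR arrays stood apart from all others, and the Torin and Ctrl arrays overlapped. Slc7a11 rose by 1.61 ± 0.06 (log2 fold change ± SE) in IR cells, a 3.05-fold difference in signal (95% interval 2.76 to 3.37, adjusted p = 0.0041 in limma). A second, dimmer Slc7a11 probe read -0.49 and -0.31 on IR, -2.18 and -2.59 on TAM, -2.03 and -1.83 on Torin and -1.81 and -2.52 on Ctrl. It had the same order for isorhamnetin, with a difference from control of 1.77 ± 0.26 that did not pass the threshold (adjusted p = 0.0798 in limma), and its Ctrl arrays lay farther apart than those of the brighter probe.

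**Figure D1:**
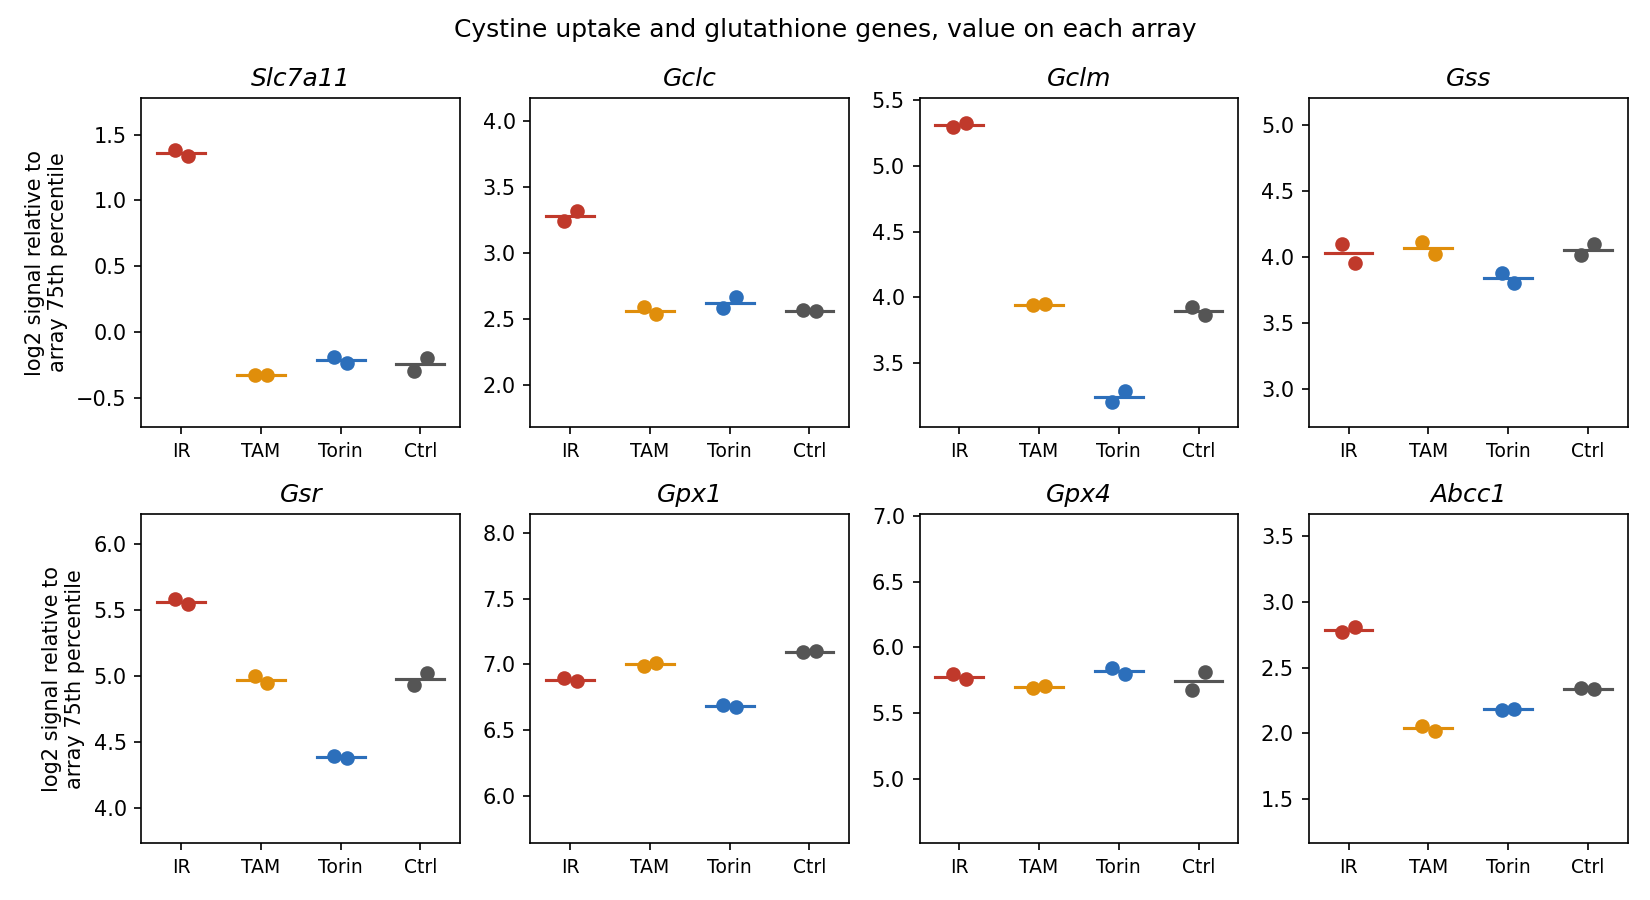
Log2 signal minus the 75th percentile (y axis, each panel spans the same number of log2 units) for the 8 genes on each array, grouped as IR (isorhamnetin), TAM (tamarixetin), Torin (Torin1) and Ctrl (control) on the x axis; points are single arrays and lines the means of 2. Slc7a11 and Gclc stood higher on IR arrays only, Gclm and Gsr were high on IR and low on Torin arrays, and Gss and Gpx4 varied little.

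Gclc, the catalytic subunit of glutamate-cysteine ligase, the rate-limiting enzyme of glutathione synthesis, was at 3.24 and 3.32 on IR, 2.59 and 2.53 on TAM, 2.58 and 2.66 on Torin and 2.57 and 2.56 on Ctrl. Its IR arrays were above all others, and TAM overlapped with both Ctrl and Torin. It rose by 0.72 ± 0.06 with isorhamnetin (adjusted p = 0.0187 in limma). Gclm, the modifier subunit that makes the ligase more efficient, was at 5.29 and 5.32 on IR, 3.94 and 3.95 on TAM, 3.21 and 3.29 on Torin and 3.92 and 3.86 on Ctrl. Its arrays fell into a high IR pair and a low Torin pair, with TAM and Ctrl close together between them. It rose by 1.41 ± 0.06 with isorhamnetin, or 2.67-fold (adjusted p = 0.0041 in limma). The 95% intervals of the Gclm and Gclc changes, 1.28 to 1.55 and 0.57 to 0.87, did not overlap; the difference between the genes was not tested.

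Gss, glutathione synthetase, which adds glycine in the second step, was at 4.10 and 3.96 on IR, 4.11 and 4.02 on TAM, 3.88 and 3.80 on Torin and 4.01 and 4.10 on Ctrl. The IR, TAM and Ctrl arrays overlapped, and its difference with isorhamnetin was -0.03 (95% interval -0.22 to 0.16). A second, dimmer Gss probe ranged between 0.01 and 0.81 over the 8 arrays and was called in 0 of the 6 comparisons.

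Gsr, glutathione reductase, which returns oxidised glutathione to its thiol form, was at 5.58 and 5.55 on IR, 4.999 and 4.94 on TAM, 4.39 and 4.38 on Torin and 4.94 and 5.02 on Ctrl. The IR arrays were highest and the Torin arrays lowest, and TAM and Ctrl overlapped. Gsr rose by 0.58 ± 0.06 with isorhamnetin (adjusted p = 0.0258 in limma). Abcc1, a pump of the plasma membrane that exports glutathione conjugates, was at 2.77 and 2.81 on IR, 2.05 and 2.02 on TAM, 2.18 and 2.18 on Torin and 2.34 and 2.33 on Ctrl. Its 4 groups did not overlap, in the order IR, Ctrl, Torin and TAM from high to low. It rose by 0.45 ± 0.05 with isorhamnetin (adjusted p = 0.0348 in limma).

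The glutathione peroxidases, selenoenzymes that spend glutathione on peroxides, were not called with isorhamnetin. Gpx1, the abundant cytosolic form, was at 6.89 and 6.87 on IR, 6.99 and 7.01 on TAM, 6.69 and 6.68 on Torin and 7.09 and 7.10 on Ctrl. Its groups did not overlap, with Ctrl highest and Torin lowest, and its difference with isorhamnetin was -0.21 ± 0.05 (adjusted p = 0.133 in limma). Gpx4, which reduces lipid peroxides in membranes and is known as a brake on ferroptosis, was at 5.80 and 5.76 on IR, 5.70 and 5.71 on TAM, 5.85 and 5.80 on Torin and 5.68 and 5.81 on Ctrl. The Ctrl arrays spanned those of TAM and IR and overlapped with Torin, and the difference with isorhamnetin was 0.03 (95% interval -0.13 to 0.19).

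The Slc7a11 and Gclm calls passed in 18 of 19 alternative settings and were lost when only the 4 IR and Ctrl arrays were fitted (adjusted p = 0.111 for both in limma). In that fit 0 of all 21528 genes were called. The Gclc, Gsr and Abcc1 calls passed in 9, 7 and 6 of 19, with changes of 0.66 to 0.76, 0.53 to 0.63 and 0.37 to 0.47 over the settings. The number of all genes called also moved, beside 117 in the reported fit. It was 13 with median scaling, 4 with the replicate block and 436 with a trended, robust variance.

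**Figure D2:**
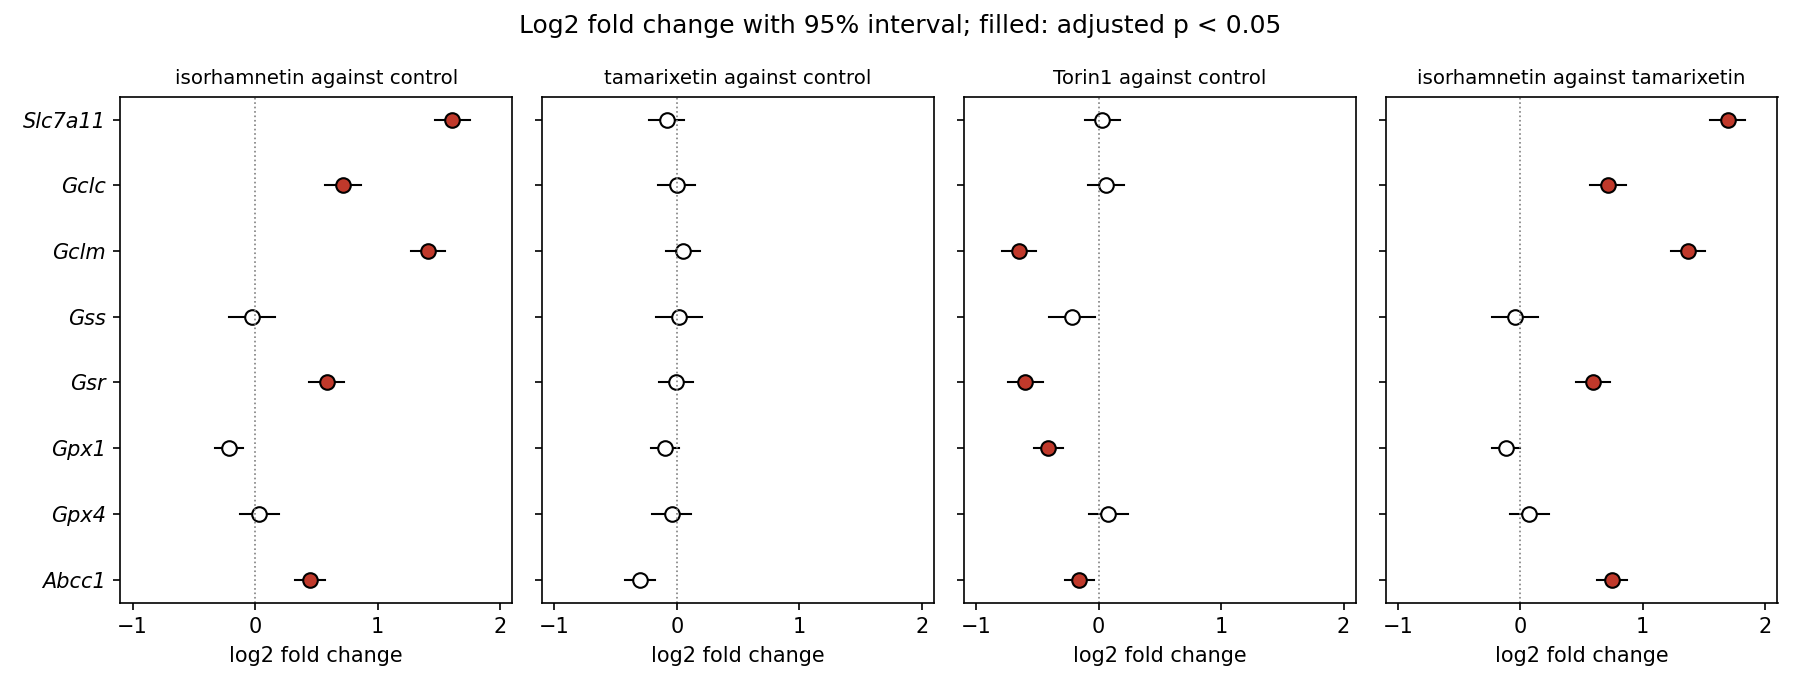
Log2 fold change (x axis) of each gene (y axis) with its 95% interval from limma, for isorhamnetin, tamarixetin and Torin1 against control and for isorhamnetin against tamarixetin; filled points have an adjusted p under 0.05. Slc7a11 and Gclm lie at 1.61 and 1.41 for isorhamnetin, no point is filled for tamarixetin, and Gclm, Gsr, Gpx1 and Abcc1 lie below 0 for Torin1.

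None of the 8 genes passed the test with tamarixetin. In limma 0 of 8 were called, beside 0.079% of all genes called in either direction, and 1 of 8 had an unadjusted p under 0.05. That gene was Abcc1, at -0.30 on the log2 scale against control (95% interval -0.42 to -0.18, adjusted p = 0.145 in limma). By p it ranked 149 of 21528 genes. The share of all genes with an unadjusted p under 0.05 is not given here, so 1 of 8 cannot be set against it. Both TAM arrays of Abcc1 lay below both Ctrl arrays, and these groups did not overlap for 46.9% of all genes. Abcc1 was called lower without a filter on dim probes, a setting in which 12526 of 45380 genes were called, 543 of them lower. It was also called lower with a trended, robust variance, where 88 of 21528 genes were called, 45 of them lower. Slc7a11 differed from control by -0.08 (95% interval -0.23 to 0.06) and Gclm by 0.05 (-0.09 to 0.19). Gclc and Gsr lay at -0.00 (-0.15 to 0.15) and -0.01 (-0.15 to 0.13), so that changes of the size seen with isorhamnetin lay outside these intervals. Gss was at 0.01, Gpx4 at -0.04 and Gpx1 at -0.10.

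The isomers were compared at the same dose and time, the only pair of compounds for which both matched. Their arrays lay in different rows of the slide, so row and compound cannot be told apart here. The IR arrays are also those of the comparison with control, so the comparisons are not independent. Isorhamnetin cells had higher levels than tamarixetin cells of 5 of the 8 genes, the cystine exchanger, both ligase subunits, the reductase and the pump, beside 0.585% of all genes called higher. The differences were 1.69 ± 0.06 for Slc7a11 (3.23-fold, adjusted p = 0.0021 in limma) and 1.37 ± 0.06 for Gclm (2.58-fold, adjusted p = 0.0026). Abcc1 differed by 0.75 ± 0.05 (1.68-fold, adjusted p = 0.0068), its TAM arrays lying below and its IR arrays above control. Gclc differed by 0.72 ± 0.06 (adjusted p = 0.0142 in limma) and Gsr by 0.59 ± 0.06 (adjusted p = 0.0209). No difference was called for Gss, at -0.04 (95% interval -0.23 to 0.15), Gpx4, at 0.07 (-0.08 to 0.23), or Gpx1, at -0.12 (-0.23 to 0.00). With only the IR and TAM arrays in the fit 0 members were called, with adjusted p = 0.0692 for Slc7a11 and 0.0801 for Gclm in limma. In that fit 1 of all 21528 genes was called. The Slc7a11 and Gclm calls each passed in 18 of 19 alternative settings, and those of Gclc, Gsr and Abcc1 in 12, 9 and 16. Leaving out 1 array at a time, the differences were 1.67 to 1.71 for Slc7a11 and 1.35 to 1.38 for Gclm. They were 0.68 to 0.76 for Gclc, 0.56 to 0.62 for Gsr and 0.73 to 0.77 for Abcc1.

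With Torin1 the genes of the modifier subunit, of recycling, of peroxide reduction by Gpx1 and of export fell, while the cystine exchanger and the catalytic subunit were not called. Of the 8 genes 4 fell and 0 rose, beside 30.1% of all genes called lower and 19.3% called higher. With so many genes called, 4 of 8 lower is not far above the share over all genes. Gclm fell by 0.65 on the log2 scale (0.64-fold, 95% interval 0.58 to 0.70, adjusted p = 0.0006 in limma). Gsr fell by 0.60 (adjusted p = 0.00079 in limma), Gpx1 fell by 0.41 (adjusted p = 0.00145) and Abcc1 fell by 0.16 (adjusted p = 0.0417). Both Torin arrays were below both Ctrl arrays for each of these genes, while these groups did not overlap, in either direction, for 79.3% of all genes. Gss was also lower on both Torin arrays, at -0.22 (95% interval -0.40 to -0.03), without passing the threshold (adjusted p = 0.0599 in limma). Slc7a11 was at 0.03 (-0.11 to 0.17), Gclc at 0.06 (-0.09 to 0.21) and Gpx4 at 0.08 (-0.08 to 0.24). The Gclm interval, -0.79 to -0.51, did not overlap that of Gclc, so the subunits of the ligase differed in their measured changes; that difference was not tested.

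The median of all genes in the Torin1 comparison was -0.10 with the 75th percentile as the scale and -0.27 with the array median. Relative to that median, Gclm was at -0.55, Gsr at -0.50, Gpx1 at -0.31, Gss at -0.12 and Abcc1 at -0.06 on the log2 scale. Slc7a11 was at 0.13, Gclc at 0.16 and Gpx4 at 0.18. The Gclm, Gsr and Gpx1 calls passed in 19 of 19 alternative settings. That of Abcc1 passed in 5 of 19 and was -0.04 with quantile normalization, under which Gclc (0.17) and Gpx4 (0.27) were called higher, while Slc7a11, Gclc and Gpx4 turned to -0.14, -0.11 and -0.09 with median scaling.

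Torin1 was given at a lower dose than the flavonols, so the levels are set side by side. Of the 8 genes, 6 were higher in IR than in Torin cells, beside 26.6% of all genes, with Gpx1 (0.20, adjusted p = 0.0208 in limma) in addition to the 5 that rose with isorhamnetin against control. The largest such difference was 2.06 ± 0.06 for Gclm, for which both compounds lay on opposite sides of control. The Gpx1 call passed in 12 of 19 alternative settings, and the difference was 0.063 with quantile normalization (adjusted p = 0.351 in limma); without any 1 IR or Torin array the call was lost, at 0.19 to 0.21. In TAM against Torin cells, 3 of 8 were higher, beside 24.1% of all genes: Gclm at 0.70, Gsr at 0.59 and Gpx1 at 0.31. These comparisons share arrays with those against control and are not further evidence.

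Among other genes, those most like Slc7a11 over the 8 arrays by Pearson's r, of 11236 genes with a symbol and signal above background on all arrays, were Gclc (0.990), Shtn1 (0.988), Ppm1e (0.987), Ank (0.987) and Cabin1 (0.979). Their isorhamnetin changes were 0.72, 0.34, 0.36, 0.37 and 0.15 on the log2 scale, all smaller than that of Slc7a11. The genes most like Gclm were Slc48a1, a haem transporter (0.997), Txnrd1, a thioredoxin reductase (0.994), Blvrb, a biliverdin reductase (0.993), Fam102b (0.993) and Slc3a2 (0.989). Slc48a1 was at 0.93 with isorhamnetin, 0.05 with tamarixetin and -0.37 with Torin1, and Blvrb at 0.74, 0.05 and -0.31. The genes most like Gclc were Slc7a11 (0.990), Cebpa (0.983), Ppm1e (0.980), Ank (0.980) and Shtn1 (0.979). Each r is over the same 8 arrays in 4 groups and describes likeness of these values alone.

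Around the 8 genes, 6 lists of related genes were counted. In isorhamnetin cells 2 of 70 list entries tested were called against control and both rose, beside 0.418% of all genes called higher: Sqstm1, an autophagy receptor that binds KEAP1, by 0.76 ± 0.07 (adjusted p = 0.0201 in limma), and Txnrd1 by 0.59 ± 0.06 (adjusted p = 0.0222). Txnrd1 was at 6.09 and 6.07 on the IR arrays and at 5.46 and 5.51 on the Ctrl arrays. Both also rose above tamarixetin cells, at 0.78 and 0.61. Slc3a2, the heavy chain that carries the Slc7a11 exchanger to the membrane, was at 0.33 (adjusted p = 0.0694 in limma) against control and at 0.39 (adjusted p = 0.0449) against tamarixetin. Cth, which makes cysteine from cystathionine, was at 0.52 (adjusted p = 0.0683), and the transcripts of NRF2 itself (Nfe2l2), its inhibitor Keap1, the competing repressor Bach1 and Atf4 were at 0.05, -0.07, 0.03 and 0.03.

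With tamarixetin 0 genes of the lists were called in limma, and 8 of the 70 tested list entries had an unadjusted p under 0.05. The share of all genes under 0.05 is not given here, so these 8 cannot be set against it. Nfe2l2 was at 0.17 (adjusted p = 0.327 in limma), Keap1 at -0.16, Bach1 at 0.13 and Atf4 at -0.19 against control. The list medians lay between -0.09 and -0.03 on the log2 scale, beside -0.05 for all genes.

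**Figure D3:**
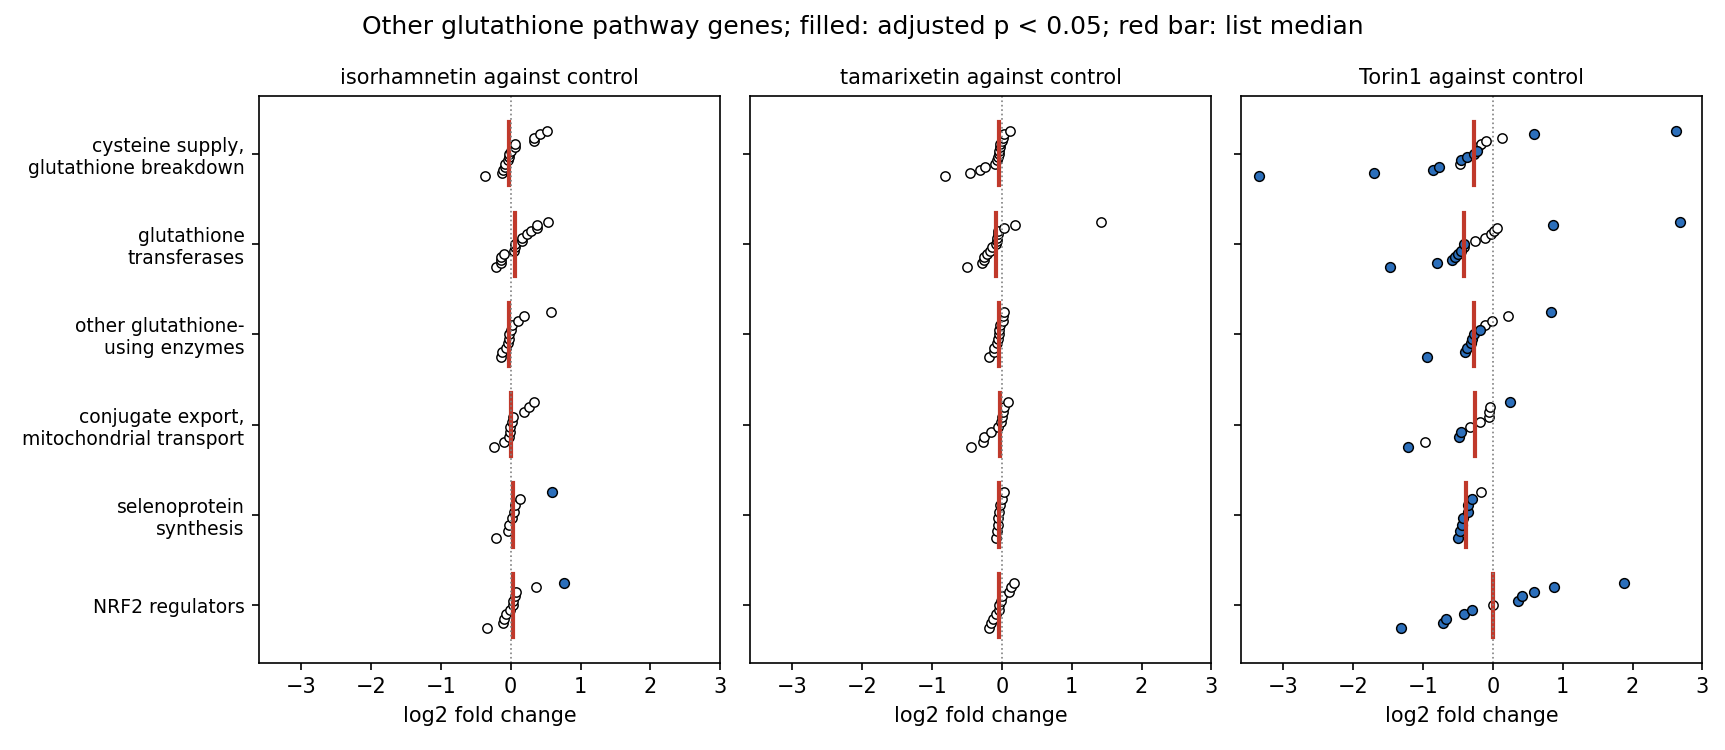
Log2 fold change against control (x axis) of the measured genes of 6 related lists (y axis), for isorhamnetin, tamarixetin and Torin1; each point is a gene, filled points have an adjusted p under 0.05 in limma, and the red bar is the median of the list. With isorhamnetin 2 points are filled, with tamarixetin none, and with Torin1 most lists hold more filled points below 0 than above, while the NRF2 regulators hold 5 on each side.

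With Torin1 the genes of cysteine supply and glutathione breakdown fell in 8 and rose in 2 of 15 tested, with a list median of -0.27 beside -0.10 for all genes. This and the Torin1 counts of the other lists stand beside 30.1% of all genes called lower and 19.3% called higher. Chac1, which cleaves glutathione, had the largest fall, at -0.64 and -0.95 on the Torin arrays and 2.52 and 2.57 on Ctrl, a change of -3.34 ± 0.12 (adjusted p = 6.3e-05 in limma). Cth was at 0.22 and 0.40 on Torin and 2.03 and 1.99 on Ctrl, a change of -1.70 ± 0.08. Mat2a, which makes S-adenosylmethionine from methionine, fell by 0.86, and Slc3a2 fell by 0.22 (adjusted p = 0.0144 in limma). Anpep, a membrane aminopeptidase, rose by 2.62 ± 0.06.

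Among the glutathione transferases, which attach glutathione to electrophiles, 7 of 15 fell and 2 rose with Torin1, beside 30.1% and 19.3% of all genes, with a list median of -0.41. Mgst2, a microsomal member, fell by 0.79, and Gstt4 fell by 1.47, with 1 of 2 Torin arrays well above background. Gstt2 rose by 0.86. Gstm4 was not well above background on either Ctrl array. Only Torin had both arrays well above background, so Gstm4 entered the test through the group where it was high. Its adjusted p of 0.0217 in limma, and its place among the 2 that rose, are therefore no support for a rise. The Torin signal was at least 3.59-fold that of control. This bound is the Torin mean over the lowest signal well above background on each Ctrl array, or the probe's own where higher. The measured Gstm4 values were -1.11 and -3.05 on the Torin arrays, which lay far apart, and -4.35 and -5.16 on Ctrl. These families hold near-identical genes, and the signal of their probes may be shared.

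Among other enzymes that use glutathione, 7 of 11 fell and 1 rose, beside 30.1% and 19.3% of all genes, with a list median of -0.27. Glrx, a glutaredoxin, fell by 0.95, Prdx6, a peroxiredoxin, fell by 0.40, Glo1, the first glyoxalase, fell by 0.37, and Gpx2, a peroxidase best known from gut epithelium, rose by 0.83 at a low signal. Of conjugate exporters and mitochondrial carriers, 3 of 10 fell and 1 rose, with a median of -0.26; the share that fell was close to that of all genes, 30.1%, and the share that rose was below the 19.3% of all genes. Slc25a10, a mitochondrial dicarboxylate carrier, fell by 1.21, Abcc4 fell by 0.48, Abcg2 fell by 0.46, and Abcc10 rose by 0.24.

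The list of selenoprotein synthesis, on which Gpx1 and Gpx4 depend, also held Txnrd1, a selenoprotein rather than a gene of that synthesis. Of the list, Txnrd1 included, 7 of 8 fell and 0 rose with Torin1, beside 30.1% and 19.3% of all genes. The list median was -0.39. Sepsecs, which makes the selenocysteine on its tRNA, fell by 0.50, Sephs1 fell by 0.47, Trnau1ap fell by 0.44, and Txnrd1, itself a selenoprotein, fell by 0.36. The NRF2 regulators divided, with 5 of 11 higher, beside 19.3% of all genes, and 5 lower, beside 30.1%. Sqstm1 rose by 1.88 ± 0.07, Maff, a small partner protein of NRF2, rose by 0.87, Bach1 rose by 0.59, and Nfe2l2 rose by 0.41. Atf4 fell by 1.32 ± 0.06, with 7.05 and 6.98 on the Torin arrays and 8.31 and 8.36 on Ctrl, Nfe2l1, a relative of NRF2, fell by 0.71 and Keap1 fell by 0.67.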

How the data were processed

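RNA of 8 one-colour arrays in 4 groups of 2 was analysed. Per the file headers, intensity values had background subtracted and spatial trends removed within the array by Agilent Feature Extraction 10.7.1.1, a version also in the submitters' processing notes. The authors deposited log2 values too; signal minus each array's 75th percentile and each probe's median matched them within 0.01 for 99.8% of 56605 probes on all arrays.

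Outlier spots were dropped (323 probes lost), and 27562 probes were kept that stood well above background on both arrays of some group. Probes were named by RefSeq accession, and the brightest probe of a gene was used, giving 21528 genes. Log2 signals minus the 75th percentile over probes were fitted with limma 3.58.1 in R 4.3.3 over all 8 arrays with 4 residual degrees of freedom. Two-sided p-values were adjusted (Benjamini-Hochberg) over all genes of a comparison, with a call at adjusted p under 0.05. The method was tested on simulated data. The array header names build mm9, so only the promoter table's own coordinates are given.

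The members, lists and tests were chosen with earlier results of these data known. Named list genes are up to 4 per list, called against control, by size of change, with Slc3a2, Nfe2l2, Keap1, Bach1 and Atf4 added. Alternatives changed background correction, scaling, filter, arrays fitted, variance, probe averaging, the values, the replicate number and each array in turn. Deviations of same-numbered arrays correlated between -0.13 and 0.08, so no pairing by number was seen. These correlations cannot exclude a weak pairing or one limited to some genes, and the labels do not settle it.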

Additional observations from a re-analysis of the deposited data

How the results depend on the processing

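Over 912 checks of a value under another setting, 783 kept direction and side of the threshold, 81 lost the call, 17 gained one and 31 changed sign; no sign change concerned a called member. Of members called with isorhamnetin against control (5), the number was 2 with median scaling, with no filter and with the replicate block, and 0 with only the 2 groups fitted. Against tamarixetin (5) the number was 3 with median scaling and with the replicate block, and 0 with the 2 groups alone. For tamarixetin against control (0) it was 1 without the filter, where 12526 of 45380 genes were called. It was 1 also with the trended, robust variance, where 88 of 21528 were. For tamarixetin against Torin1 (3) it was 5 with quantile normalization, with probes above background on all 8 arrays and with the trended variance. In these settings 9296 of 21528, 8952 of 16984 and 9902 of 21528 genes were called, beside 9293 of 21528 in the reported fit. Over all genes, isorhamnetin against control (117) had 13 calls with median scaling, 4 with the replicate block and 0 with the 2 groups. With no filter it had 6 calls among 45380 genes. Isorhamnetin against tamarixetin (178) had 113 calls with median scaling, 43 with the replicate block and 1 with the 2 groups. In these settings of the isorhamnetin comparisons calls became fewer over all genes too. The fit of 2 groups has fewer samples. The cause of the fewer calls was not tested for any setting. Sign changes were as follows. With tamarixetin against control, Gclc was 0.041, Gsr 0.029 and Gpx4 0.0074 with quantile normalization, Gclm -0.0055 and Gss -0.040 with median scaling, Gsr 0.0076 with normexp, and Gclc 0.014 and Gsr 0.0080 with the percentile over spots, a setting chosen after seeing the data. With median scaling Gpx4 was -0.021 for isorhamnetin and Slc7a11 -0.14, Gclc -0.11 and Gpx4 -0.094 for Torin1 against control, Gpx4 0.074 for isorhamnetin against Torin1, and Slc7a11 0.0030 and Gclc 0.056 for tamarixetin against Torin1. With probes of a gene averaged Gss was 0.019 for isorhamnetin and -0.050 for tamarixetin against control, and 0.069 between the isomers. Leaving out 1 array, Gss ranged from -0.097 to 0.042 for isorhamnetin and -0.031 to 0.060 for tamarixetin against control and -0.11 to 0.027 between the isomers; for tamarixetin Gclc ranged from -0.027 to 0.025, Gsr from -0.052 to 0.036 and Gpx4 from -0.11 to 0.026; for isorhamnetin Gpx4 ranged from -0.034 to 0.10, and for Torin1 Slc7a11 from -0.015 to 0.080. Where an arm kept 1 array, it was assumed to vary like the others. Same-numbered arrays were not found to be paired, and the block moved no other count of calls by over 1.5 times. Every member was well above background on all arrays, and the dimmer Slc7a11 probe had a wider SE than the brighter one.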

Other observations

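Between the isomers, 5 of 70 list entries beyond the 8 members were called, all higher in isorhamnetin than in tamarixetin cells, beside 0.585% of all genes called higher. Besides Sqstm1, Txnrd1 and Slc3a2 they were Gstp2, a pi class glutathione transferase, and Esd, an esterase that completes the glutathione-dependent removal of formaldehyde; both were chosen after their values were seen. Gstp2 differed by 0.64 ± 0.07 (adjusted p = 0.0279 in limma) and was at 3.69 and 3.58 on the IR arrays and 3.04 and 2.94 on the TAM arrays. Esd differed by 0.62 ± 0.08 (adjusted p = 0.0398 in limma) and was at 8.31 and 8.13 on IR and 7.58 and 7.62 on TAM arrays. Against control neither passed the threshold, with adjusted p = 0.0906 for Gstp2 and 0.0578 for Esd in limma. Gstp2 has near-identical relatives, and its probe may read them too.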
